A study of Mus musculus with 12 samples.

Results

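The genes described here encode antibodies: the constant regions of the heavy and light chains, the V segments that are joined to them, and Jchain, the small protein that links units of secreted IgM and IgA. They were every entry of the count table whose symbol begins with Ighv, Igkv or Iglv, every named constant region (Ighm, Ighd, Igha, Ighe, the 4 Ighg genes, Igkc and Iglc1 to Iglc3) and Jchain, and they were selected on their measured level: an expected count of 10 or more in at least 4 of the 12 libraries. This left 100 of the 361 entries so named, in a table of 55491 entries: 35 of 185 Ighv segments, 50 of 160 Igkv segments, all 3 Iglv segments, 7 heavy-chain constant regions, 4 light-chain constant regions and Jchain. Ighe, the IgE constant region, was left out by the count minimum, with 0 or 1 count in each library and 5 counts in all. The heavy-chain genes lie on chromosome 12 (42 of the 100), the kappa genes on chromosome 6 (51), the lambda genes on chromosome 16 (6) and Jchain on chromosome 5. The minimum was reached in exactly 4 libraries by 9 of the genes, with 98 to 278 counts in all, and 12 segments reached it in exactly 3 libraries and stayed out, with 79 to 160 counts in all.

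The lungs came from wild-type male C57BL/6J mice labelled as 10 weeks old. All of them had received 0.0125 U of bleomycin by the oropharyngeal route (about 0.5 U/kg), a drug that injures the alveoli and leads to scarring. The day 21 NP group had then received 2 mg of nanoparticles per dose into the retro-orbital vein, in 5 daily doses that began on day 14 and ended on day 18. The particles had a core of poly(lactide-co-glycolide), PLG, under a coat of poly(ethylene-alt-maleic anhydride), PEMA. The day 21 vehicle group was given phosphate-buffered saline, and the day 14 group was taken before any such treatment. Each group held 4 mice with 1 library each, made from polyA RNA of all 5 lobes without the trachea and large airway. No uninjured lung was analysed here, so every change is within injured lungs.

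B cells assemble an antibody gene by joining V, D and J segments of the heavy chain and V and J segments of the kappa or lambda chain. A naive B cell carries IgM and IgD on its surface. After activation it may become a plasma cell, which fills with secreted antibody transcripts, may switch to IgG or IgA, and adds the J chain to IgM and IgA polymers. IgA is the main antibody of mucosal surfaces such as the airways, where the receptor encoded by Pigr carries it across the epithelium.

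Sequences are shown for 6 V segments on which the results below turn. Ighv1-55, Ighv1-72 and Igkv1-110 rose in both day 21 groups against day 14. For Igkv1-110 the call in NP lungs against day 14 held whichever library was left out. Igkv1-117 rose in NP lungs against day 14. None of these was called between NP and vehicle lungs. Igkv5-43 differed widely between mice of a group, and Iglv1 was the most abundant V segment by mean read level. Each sequence is the last 66 bases of the germline coding sequence, the end that is joined to a D or J segment, from GENCODE M21 on GRCm38. The positions were chr12:115208095-115208160 on the minus strand for Ighv1-55, chr12:115757984-115758049 on the minus strand for Ighv1-72, chr6:68271202-68271267 on the plus strand for Igkv1-110, chr6:68121762-68121827 on the plus strand for Igkv1-117, chr6:69823355-69823420 on the minus strand for Igkv5-43 and chr16:19085017-19085082 on the minus strand for Iglv1. Capitals mark 9 bases that encode tyrosine, tyrosine or phenylalanine, and the conserved cysteine before the third complementarity-determining loop.
Ighv1-55: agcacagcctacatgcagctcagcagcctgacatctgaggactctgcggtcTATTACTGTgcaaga
Ighv1-72: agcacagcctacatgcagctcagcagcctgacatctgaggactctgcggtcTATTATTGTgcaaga
Igkv1-110: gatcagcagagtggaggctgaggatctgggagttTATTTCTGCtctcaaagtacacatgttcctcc
Igkv1-117: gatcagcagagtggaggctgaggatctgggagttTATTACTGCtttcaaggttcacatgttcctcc
Igkv5-43: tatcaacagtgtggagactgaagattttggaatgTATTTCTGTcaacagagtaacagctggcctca
Iglv1: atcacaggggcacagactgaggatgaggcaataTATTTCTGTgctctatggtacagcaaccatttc

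Such a 9-base run was present in the last 66 coding bases of 84 of the 88 V segments, most often as TATTACTGT, in 41 of them. Since V segments are so alike, every 151-base window of the annotated transcripts, the read length, was compared with all other transcripts. None of the constant regions or Jchain shared such a window with another gene, although Ighg2c and Ighg2b were identical at 86.4% of aligned bases and Iglc3 and Iglc2 at 95.4%. Of the V segments, 8 shared at least 1 window with another gene, among them Ighv1-72 with 28.5% of its windows and Igkv5-43 with 18.8%, so that reads of these segments may have been split between copies. V segments of mature antibodies also carry mutations and joined ends that a germline reference lacks.

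The libraries held 24138582 to 28910459 expected counts in NP lungs, 28001006 to 36208498 in vehicle lungs and 25706260 to 42714693 at day 14. Levels below are CPM, counts scaled to library sizes adjusted by edgeR's trimmed mean method, and compare 1 gene between lungs. Comparisons between genes use the deposited TPM, which are scaled for transcript length. A gene was said to rise or fall where edgeR's quasi-likelihood test, fitted to all 17909 genes that passed the filter, gave a Benjamini-Hochberg adjusted p under 0.05. In whole lung RNA, more cells of a type and more RNA per cell cannot be told apart.

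Immunoglobulin transcripts summed to 733, 668, 1587 and 421 CPM in the NP lungs of mice 1 to 4, to 626, 810, 433 and 496 CPM in the vehicle lungs and to 408, 402, 328 and 353 CPM at day 14. All 8 lungs of day 21 were above all 4 of day 14, while NP and vehicle lungs overlapped. The highest lung of all was that of NP mouse 3, and the next was that of vehicle mouse 2. NP mouse 3 had the highest level of the 12 lungs for 47 of the 100 genes and vehicle mouse 2 for 15 of them. The lowest level fell in a day 14 lung for 79 of the genes. The share of all genes that were highest or lowest in each lung is not given here. The count minimum also favoured genes that are high at day 21, so these numbers of genes are a description only.

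**Figure D1:**
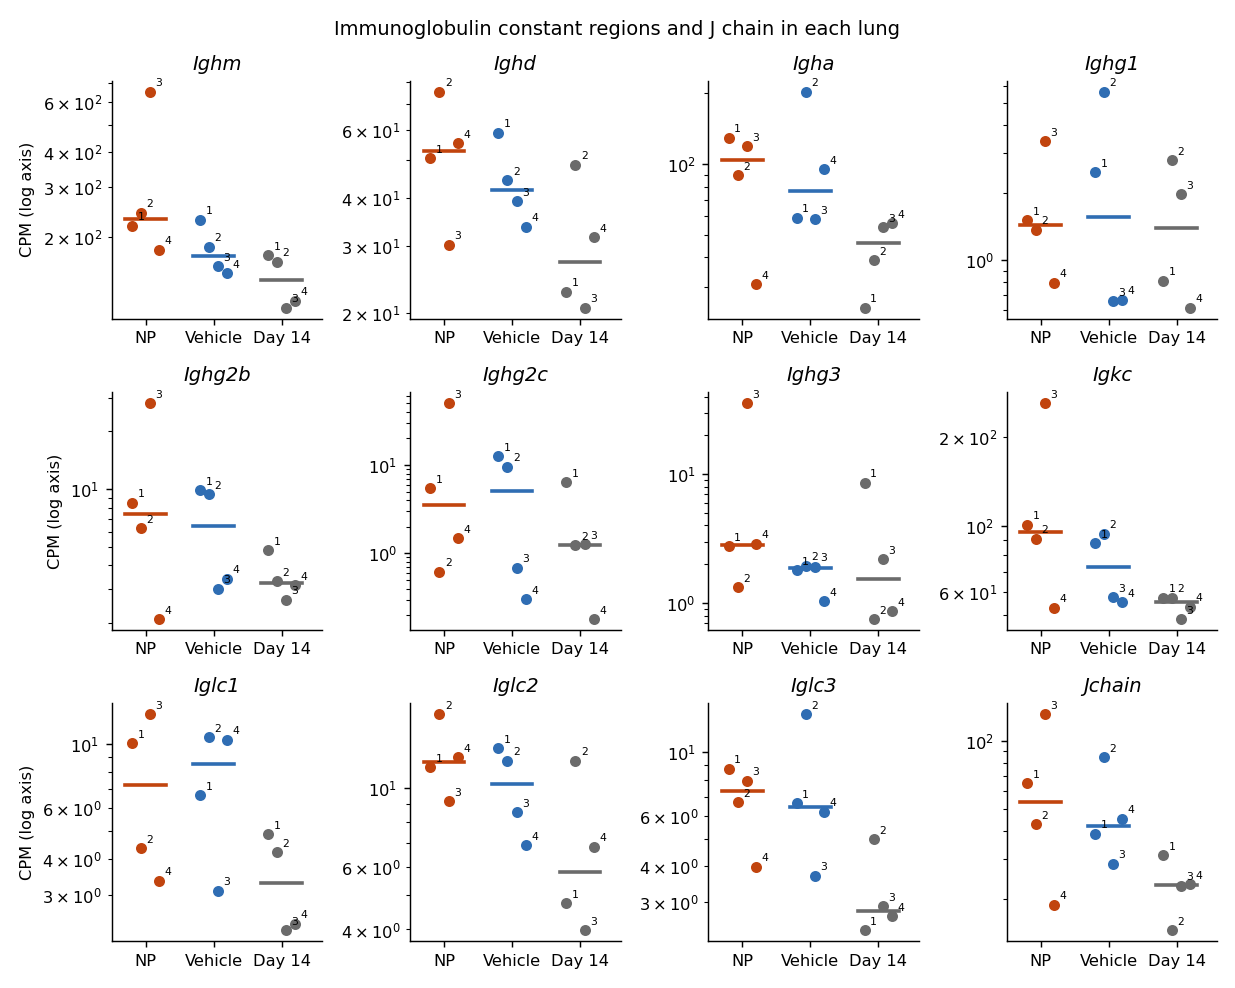
CPM on a log axis for each constant region and Jchain, with 1 point per lung numbered by mouse and a bar at the group median, for NP and vehicle lungs of day 21 and for day 14. Ighm reached 652 CPM in NP mouse 3 against 244 CPM or less in every other lung, whereas the same lung had the lowest Ighd of the NP group.

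IgM and IgD are made from the same heavy-chain locus, and in NP mouse 3 their levels stood at opposite ends of the NP group. Ighm had 219, 244, 652 and 181 CPM in NP lungs, 230, 185, 158 and 149 CPM in vehicle lungs and 173, 164, 113 and 119 CPM at day 14. Its 4 NP values lay above the 4 of day 14, with NP mouse 3 far above the rest, and the vehicle values overlapped both groups. In edgeR Ighm was 1.19 higher in NP lungs than at day 14 on the log2 scale (95% confidence interval 0.33 to 2.04, adjusted p = 0.0645), short of the threshold. Without NP mouse 3 the difference was 0.60 and passed it (adjusted p = 0.0463).

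Ighd, the IgD heavy chain that marks naive B cells, had 50.6, 75.4, 30.1 and 55.3 CPM in NP lungs, 59, 44.3, 39.2 and 33.6 CPM in vehicle lungs and 22.8, 48.7, 20.7 and 31.6 CPM at day 14. Here NP mouse 2 was highest and NP mouse 3 was lowest of its group, and all groups overlapped. The differences from day 14, 0.78 for NP and 0.51 for vehicle on the log2 scale, did not pass the threshold in edgeR (adjusted p = 0.14 and 0.343).

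Igha, the IgA heavy chain, had 129, 89.4, 118 and 30.7 CPM in NP lungs, 58.9, 202, 58.2 and 94.8 CPM in vehicle lungs and 24.4, 38.9, 53.7 and 56.0 CPM at day 14. The 4 vehicle lungs lay above the 4 of day 14, and the NP group spanned from below the day 14 median to more than any day 14 lung. The differences from day 14 in edgeR were 1.09 for NP (adjusted p = 0.204) and 1.26 for vehicle (95% confidence interval 0.06 to 2.47, adjusted p = 0.165) on the log2 scale. Without vehicle mouse 2 the vehicle difference was 0.72.

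Jchain had 64.9, 42.9, 131 and 19.0 CPM in NP lungs, 39.0, 84.6, 28.7 and 45.3 CPM in vehicle lungs and 31.2, 14.7, 22.9 and 23.3 CPM at day 14. Its 2 highest lungs, NP mouse 3 and vehicle mouse 2, were also the 2 with the highest immunoglobulin sums. Jchain differed from day 14 by 1.48 in NP lungs (95% confidence interval 0.22 to 2.73, adjusted p = 0.108) and by 1.09 in vehicle lungs (adjusted p = 0.24) on the log2 scale in edgeR. Without NP mouse 3 the NP difference was 0.88.

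The IgG genes were scarcer and rested on few mice. Ighg2c, the IgG2c heavy chain, had 5.50, 0.623, 50.4 and 1.48 CPM in NP lungs, 12.7, 9.57, 0.687 and 0.304 CPM in vehicle lungs and 6.44, 1.24, 1.27 and 0.181 CPM at day 14. Each group held lungs near 1 CPM or less and lungs several times higher, and the groups overlapped throughout. Ighg3 had 2.75, 1.33, 35.7 and 2.90 CPM in NP lungs, 1.80, 1.96, 1.92 and 1.03 CPM in vehicle lungs and 8.59, 0.753, 2.20 and 0.868 CPM at day 14. NP mouse 3 and day 14 mouse 1 stood out for Ighg3. Ighg2b ranged from 2.10 to 28.1 CPM in NP lungs, 3.02 to 9.86 CPM in vehicle lungs and 2.64 to 4.81 CPM at day 14. Ighg1 ranged from 0.796 to 3.40 CPM in NP lungs, 0.659 to 5.63 CPM in vehicle lungs and 0.615 to 2.79 CPM at day 14. None of the 4 IgG genes passed the threshold in edgeR, with adjusted p of 0.146 to 0.88 for NP against day 14. For NP against day 14, Ighg3 and Ighg1 were 1.71 and 0.21 higher with all lungs, but −0.45 and −0.29 without NP mouse 3, on the log2 scale. For vehicle against day 14, Ighg3 was −0.95 with all lungs and 0.40 without day 14 mouse 1, and Ighg1 was 0.63 with all lungs and −0.29 without vehicle mouse 2.

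Among light chains, Igkc, the kappa constant region, had 101, 90.7, 261 and 53.1 CPM in NP lungs, 87.6, 94.3, 57.6 and 55.3 CPM in vehicle lungs and 57.4, 57.4, 48.6 and 53.5 CPM at day 14. The day 14 lungs lay close together, and NP mouse 4 and vehicle mouse 4 fell within their range. Igkc was 1.22 higher in NP lungs than at day 14 on the log2 scale (95% confidence interval 0.27 to 2.17, adjusted p = 0.0836 in edgeR), and 0.60 higher without NP mouse 3.

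The lambda constant regions had smaller levels. Iglc3 had 8.77, 6.68, 7.96 and 3.98 CPM in NP lungs, 6.66, 13.6, 3.71 and 6.20 CPM in vehicle lungs and 2.39, 4.97, 2.90 and 2.68 CPM at day 14. Only day 14 mouse 2 overlapped the day 21 lungs. Iglc3 was 1.09 higher in NP lungs (adjusted p = 0.0852) and 1.23 higher in vehicle lungs (adjusted p = 0.067) than at day 14 on the log2 scale in edgeR. Iglc2 ranged from 9.17 to 16.1 CPM in NP lungs, 6.90 to 12.9 CPM in vehicle lungs and 3.98 to 11.9 CPM at day 14. Iglc1 ranged from 3.37 to 12.7 CPM in NP lungs, 3.10 to 10.6 CPM in vehicle lungs and 2.27 to 4.88 CPM at day 14. Iglc1 and Iglc2 passed in neither comparison in edgeR, with adjusted p of 0.106 to 0.289.

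Thus 0 of the 12 constant regions and Jchain passed the threshold of edgeR in any comparison. At an unadjusted p under 0.05, 8 of the 12 were higher in NP lungs and 3 of the 12 in vehicle lungs than at day 14, beside 14.3% and 12.3% of all genes tested. DESeq2 called Ighm (adjusted p = 0.0169), Igkc (adjusted p = 0.026), Jchain (adjusted p = 0.0402), Iglc2 (adjusted p = 0.0276) and Iglc3 (adjusted p = 0.0146) higher in NP lungs than at day 14, and Iglc3 higher in vehicle lungs (adjusted p = 0.00617). Of all 17909 genes it called 1600 higher in NP lungs and 1146 higher in vehicle lungs than at day 14. Between NP and vehicle lungs DESeq2 called 0 of the 12, and 18 of all genes. In that comparison 1 of the 12 had an unadjusted p under 0.05 in edgeR. DESeq2 gave no adjusted p for Ighg3.

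**Figure D2:**
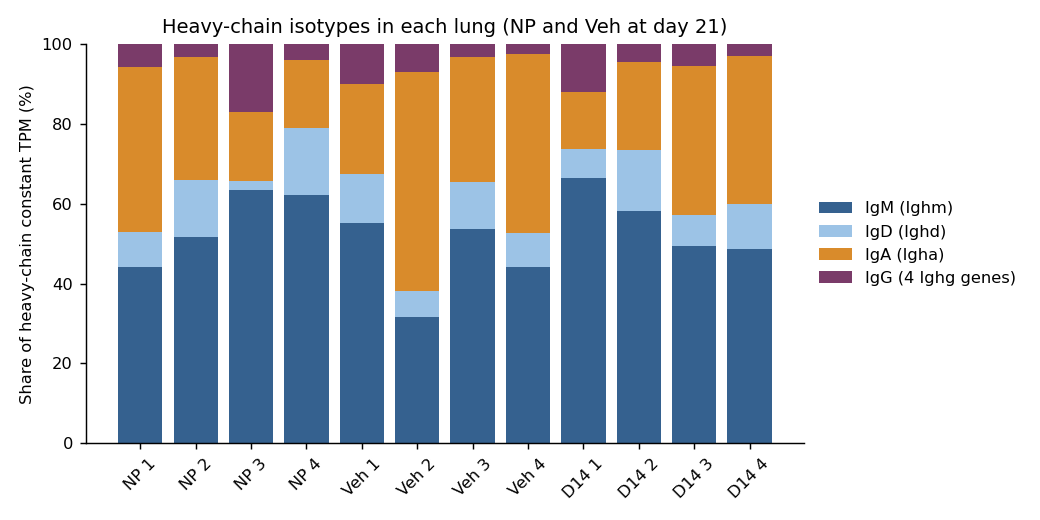
Share of each heavy-chain isotype in the summed TPM of the heavy-chain constant regions, as stacked bars that add up to 100% in each of the 12 lungs, with NP lungs left, vehicle lungs in the middle and day 14 lungs right. IgG took 17.0% in NP mouse 3, and IgA took 54.8% in vehicle mouse 2.

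The isotype mix varied widely between mice of the same group. By TPM, IgM made up 44.1% to 63.4% of heavy-chain constant transcripts in NP lungs, 31.7% to 55.2% in vehicle lungs and 48.6% to 66.4% at day 14. IgA made up 17.2% to 41.5% in NP lungs, 22.4% to 54.8% in vehicle lungs and 14.3% to 37.3% at day 14. IgD made up 2.36% to 16.8% in NP lungs, 6.49% to 12.4% in vehicle lungs and 7.32% to 15.2% at day 14. The IgG genes together made up 3.22% to 17.0% in NP lungs, 2.39% to 10.1% in vehicle lungs and 2.97% to 12% at day 14. The 3 groups overlapped for every isotype. Lambda made up 12.3% to 27.3% of light-chain constant transcripts in NP lungs, 22.1% to 34.5% in vehicle lungs and 17.8% to 28.0% at day 14, again overlapping. The lowest lambda share and the lowest IgD share were both those of NP mouse 3.

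The V segments that met the count minimum were also set against the constant regions within each lung. Ighv segments had 0.642 to 0.764 TPM per TPM of heavy-chain constant region in NP lungs, 0.704 to 0.933 in vehicle lungs and 0.442 to 0.818 at day 14. Igkv segments had 1.42 to 1.58 TPM per TPM of Igkc in NP lungs, 1.56 to 1.89 in vehicle lungs and 1.3 to 1.59 at day 14. Iglv segments had 0.807 to 1.34 TPM per TPM of lambda constant region in NP lungs, 0.872 to 1.71 in vehicle lungs and 0.528 to 1.48 at day 14. The kappa ratio stayed between 1.3 and 1.89 over lungs in which Igkc itself ranged between 48.6 and 261 CPM.

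Of the 100 genes, 95 passed the filter on low counts, and single V segments carried the called changes. In NP lungs 12 of 95 rose and 0 fell against day 14 (12.6%), beside 14.7% of all genes tested called in either direction (6.16% higher and 8.56% lower). In vehicle lungs 8 of 95 rose and 0 fell against day 14 (8.42%), beside 10.3% of all genes called (3.79% higher and 6.51% lower). At an unadjusted p under 0.05, 40 of 95 were higher in NP lungs (42.1%) and 26 of 95 in vehicle lungs (27.4%), beside 14.3% and 12.3% of all genes tested that were higher (30.8% and 27.3% in either direction). Both comparisons share the day 14 lungs. The number of genes at the count minimum in all 4 lungs was 54 for NP, 62 for vehicle and 30 for day 14, and 9 genes reached it in no day 14 lung, so that the rule itself favoured genes that are high at day 21. These counts are therefore a description. With each library left out in turn, the NP count was 4 without NP mouse 1, 5 without day 14 mouse 3, 7 without day 14 mouse 1 and 9 to 14 otherwise. The vehicle count was 0 without day 14 mouse 3, 3 without vehicle mouse 1, 4 without day 14 mouse 1, 5 without vehicle mouse 2 or 4 or day 14 mouse 4, 14 without NP mouse 3 and 8 to 11 otherwise.

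The fold changes of these genes come from the same fit, count rule and day 14 lungs, so they too are a description only. They are no separate support for the counts above. The log2 fold change was above 0 for 88 of 95 genes in NP against day 14 and for 80 of 95 in vehicle against day 14, where 51.1% and 50.6% of all genes tested had a positive value. The median log2 fold change of the 95 genes was 1.2 for NP and 0.68 for vehicle against day 14, and 0.01 or less for all genes tested. Groups did not overlap, with day 21 higher, for 11 of 95 genes in NP against day 14 (8.47% of all genes tested) and for 8 of 95 in vehicle against day 14 (7.2% of all genes tested). Spread between mice of 1 group was wide: the median biological coefficient of variation was 0.536 over the 95 genes, 0.306 over 14 mature B cell genes and 0.104 over all genes tested.

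**Figure D3:**
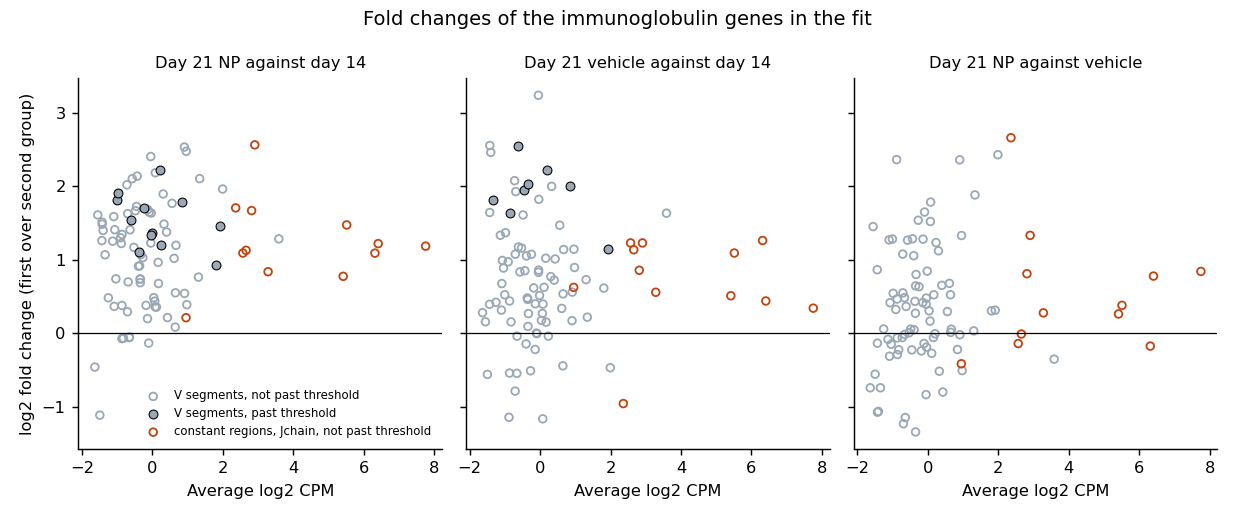
Log2 fold change against average log2 CPM for the 95 genes in the fit, with V segments in grey, constant regions and Jchain in red, and filled points for genes past the adjusted threshold of edgeR, in panels for NP against day 14, vehicle against day 14 and NP against vehicle. All filled points are V segments above 0, with 12 for NP against day 14, 8 for vehicle against day 14 and 0 for NP against vehicle.

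Of the 10 V segments with the smallest p in NP against day 14, Igkv1-110 was the only one whose call held as each library was left out. It had 7.84, 3.94, 6.01 and 2.82 CPM in NP lungs, 5.95, 3.58, 4.34 and 2.76 CPM in vehicle lungs and 1.60, 2.49, 1.97 and 1.45 CPM at day 14. All 8 day 21 lungs were above all 4 day 14 lungs. It rose by 1.47 on the log2 scale in NP lungs against day 14 (95% confidence interval 0.77 to 2.16, adjusted p = 0.0105 in edgeR), with adjusted p of 0.00608 to 0.0382 as each library was left out. In vehicle lungs it rose by 1.15 (adjusted p = 0.0389 in edgeR), a call lost without vehicle mouse 1, 2 or 3 or day 14 mouse 1, 3 or 4 (adjusted p 0.0545 to 0.112).

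By counts, which are not scaled for length, Ighv1-55 was the leading Ighv segment in 5 of the 8 day 21 lungs and in none of day 14. By mean TPM over all 12 lungs it had 18.1, below Ighv1-26 (25.0), Ighv1-53 (21.4) and Ighv9-3 (19.8). Ighv1-55 had 2.68, 2.37, 1.56 and 1.85 CPM in NP lungs, 2.99, 4.12, 2.06 and 0.699 CPM in vehicle lungs and 0.862, 0.565, 0.484 and 0.470 CPM at day 14. Vehicle mouse 4 alone of the day 21 lungs overlapped day 14. It rose by 1.79 in NP lungs (adjusted p = 0.0195) and by 2.01 in vehicle lungs (adjusted p = 0.0143) against day 14 on the log2 scale in edgeR. The NP call was lost without NP mouse 1 or day 14 mouse 3 (adjusted p 0.0501 to 0.0619), and the vehicle call without day 14 mouse 3 (adjusted p = 0.0532).

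Ighv1-72 had 1.93, 1.66, 1.99 and 0.362 CPM in NP lungs, 1.02, 2.77, 0.577 and 1.58 CPM in vehicle lungs and 0.359, 0.301, 0.112 and 0.470 CPM at day 14. NP mouse 4 lay within the day 14 range. It rose by 2.22 against day 14 on the log2 scale in edgeR in NP lungs (adjusted p = 0.0294) and in vehicle lungs (adjusted p = 0.0346). The NP call was lost without any of NP mice 1 to 3 or day 14 mice 1 to 3 (adjusted p 0.0521 to 0.0833), and the vehicle call without vehicle mouse 1, 2 or 4 or day 14 mouse 1, 2 or 3 (adjusted p 0.0582 to 0.101).

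Igkv1-117 had 5.99, 3.65, 4.84 and 3.22 CPM in NP lungs, 4.23, 2.47, 4.89 and 2.73 CPM in vehicle lungs and 2.97, 2.00, 2.01 and 2.28 CPM at day 14. The NP lungs lay above day 14 and the vehicle lungs overlapped it. It rose by 0.92 in NP lungs against day 14 on the log2 scale (95% confidence interval 0.39 to 1.46, adjusted p = 0.026 in edgeR), a call lost without NP mouse 1 or day 14 mouse 2 or 3 (adjusted p 0.0544 to 0.0788). In vehicle lungs it was 0.62 higher (adjusted p = 0.127).

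Of the other V segments that rose in NP lungs against day 14, Ighv1-22 rose by 1.71 (adjusted p = 0.023), which no longer passed without day 14 mouse 1 (adjusted p = 0.0724). Igkv3-12 rose by 1.81 (adjusted p = 0.0228), a rise that fell short without NP mouse 2 or 3 or day 14 mouse 1 (adjusted p 0.0504 to 0.0748). Ighv5-4 rose by 1.92 (adjusted p = 0.0289), a rise that fell short without NP mouse 1 or 2 or day 14 mouse 1 or 3 (adjusted p 0.0601 to 0.0904). Igkv4-68 (1.54), Igkv16-104 (1.36) and Iglv3 (1.10) had adjusted p of 0.0268, 0.0357 and 0.0364. Igkv4-68 no longer passed without NP mouse 3 or 4 or day 14 mouse 3 or 4 (adjusted p 0.0524 to 0.0771), Igkv16-104 without NP mouse 1, 2 or 4 or day 14 mouse 1 or 4 (adjusted p 0.0609 to 0.104) and Iglv3 without NP mouse 1, 2 or 4 or day 14 mouse 1, 3 or 4 (adjusted p 0.0578 to 0.112). All these values are log2 fold changes and adjusted p from edgeR.

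Of those that rose in vehicle lungs against day 14, Igkv12-89 rose by 2.55 (adjusted p = 0.0217), which no longer passed without vehicle mouse 1 or 3 or day 14 mouse 3 (adjusted p 0.0509 to 0.0597). Ighv7-3 rose by 2.03 (adjusted p = 0.0237), a rise that fell short without vehicle mouse 1 or 2 or day 14 mouse 1, 3 or 4 (adjusted p 0.0508 to 0.0751). Igkv8-28 rose by 1.81 (adjusted p = 0.0265), a rise that fell short without vehicle mouse 1 or 4 or day 14 mouse 1, 3 or 4 (adjusted p 0.0543 to 0.0824). Ighv1-7 rose by 1.63 (adjusted p = 0.0336), a rise that fell short without vehicle mouse 2 or 3 or day 14 mouse 2, 3 or 4 (adjusted p 0.051 to 0.0939). Igkv8-27 rose by 1.95 (adjusted p = 0.0462), a rise that fell short without NP mouse 1 or 4, vehicle mouse 1, 3 or 4, or any day 14 mouse (adjusted p 0.0504 to 0.107). Again these are log2 fold changes and adjusted p from edgeR. Without day 14 mouse 3, 0 of the immunoglobulin genes passed in vehicle against day 14.

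**Figure D4:**
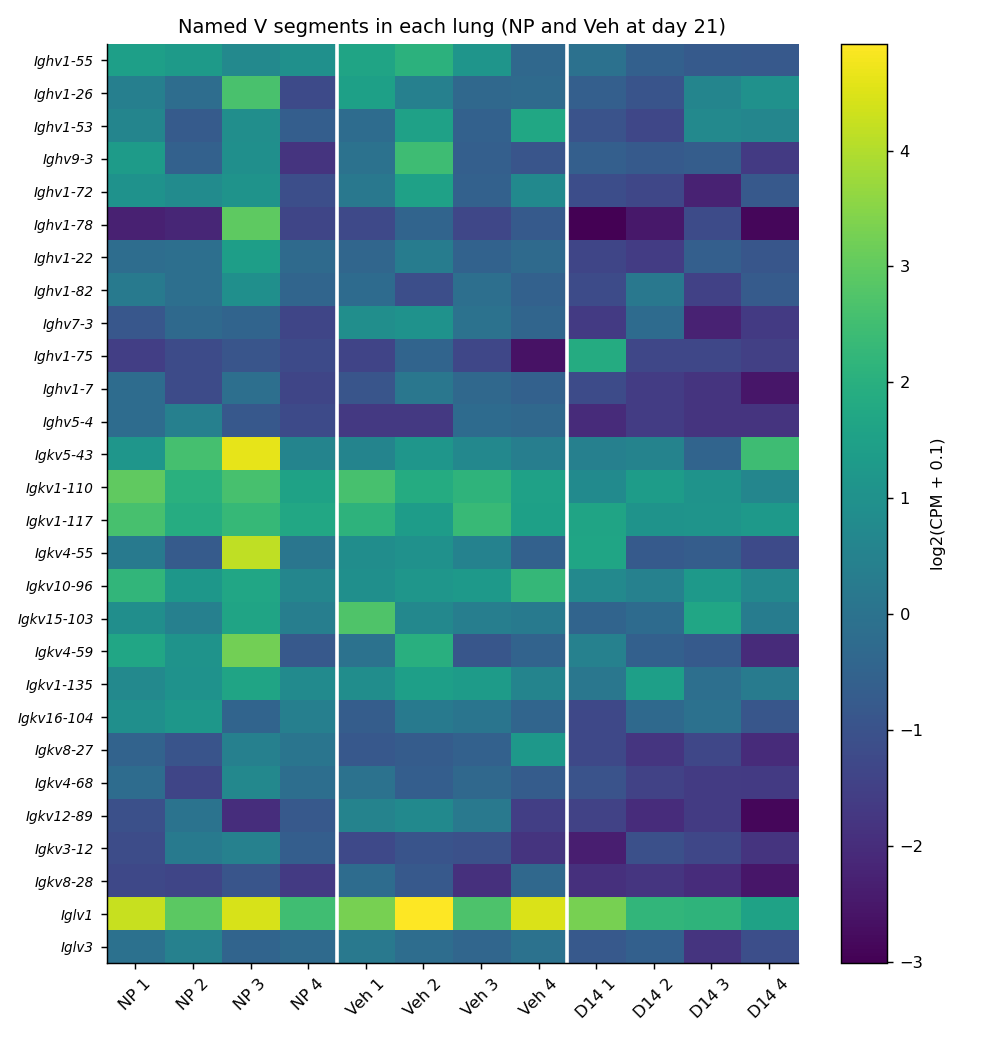
Level of 28 named V segments as log2(CPM + 0.1), in colour, in each of the 12 lungs, ordered by locus and then by mean level, with white lines between NP, vehicle and day 14 lungs. Igkv1-110 and Igkv1-117 differ less between lungs of a group, whereas Igkv5-43, Igkv4-55 and Ighv1-78 are bright in NP mouse 3.

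Which V segment led by counts differed between mice of the same group. Igkv5-43 had 2.13, 5.89, 24.3 and 1.38 CPM in NP lungs, 1.37, 2.11, 1.51 and 1.22 CPM in vehicle lungs and 1.27, 1.36, 0.633 and 5.43 CPM at day 14. It was the leading Igkv segment in NP mice 2 and 3 and in day 14 mouse 4. Igkv4-55 had 17.9 CPM in NP mouse 3 and 0.498 to 1.07 CPM in the other NP lungs, 0.577 to 1.90 CPM in vehicle lungs and 0.326 to 3.04 CPM at day 14. Ighv1-78, the leading Ighv segment of NP mouse 3, had 7.57 CPM there, 0.103 to 0.290 CPM in the other NP lungs, 0.302 to 0.632 CPM in vehicle lungs and 0.0239 to 0.335 CPM at day 14. Ighv1-75 led in day 14 mouse 1 alone, with 3.57 CPM there and 0.632 CPM or less in every other lung. Elsewhere Ighv9-3 led in vehicle mouse 2, Ighv1-53 in vehicle mouse 4 and day 14 mouse 3, Ighv1-82 in day 14 mouse 2 and Ighv1-26 in day 14 mouse 4.

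The shares and evenness given next cover only the 35 Ighv and 50 Igkv segments that met the count minimum, not the whole loci. Values for Ighv with every counted segment are given at the end. The leading Ighv segment took 8.80% to 12.7% of these Ighv counts in NP lungs, 10.6% to 14.4% in vehicle lungs and 9.93% to 17.7% at day 14. The leading Igkv segment took 9.58% to 15.3% of Igkv counts in NP lungs, 6.30% to 11.6% in vehicle lungs and 8.11% to 16% at day 14. Evenness was summarised as the effective number of segments, the number of equally used segments that would give the same chance of drawing the same segment from 2 reads. It was 17.0 to 23.7 for Ighv in NP lungs, 16.6 to 22.7 in vehicle lungs and 15.3 to 22.8 at day 14. For Igkv it was 16.9 to 27.7 in NP lungs, 22.7 to 33.1 in vehicle lungs and 17.1 to 27.7 at day 14. The groups overlapped in each of these measures. Among lambda segments Iglv1 led in every lung, with 67.8% to 94.4% of Iglv counts. Iglv1 had 18.8, 7.51, 21.6 and 5.50 CPM in NP lungs, 9.65, 30.2, 6.37 and 21.9 CPM in vehicle lungs and 9.72, 4.56, 4.32 and 2.86 CPM at day 14, with no call (adjusted p = 0.201 and 0.127 for NP and vehicle against day 14 in edgeR).

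NP and vehicle lungs, the comparison that asks about the treatment itself, gave 0 calls among the immunoglobulin genes and 0 among all 17909 genes in edgeR (0% called). At an unadjusted p under 0.05 stood 10 of the 95 genes (10.5%), 9 of them higher in NP lungs (9.47%), beside 4.25% of all genes tested in either direction and 2.41% higher. DESeq2 called 18 of all genes and 0 of the 95. The median log2 fold change was 0.31, and 60 of 95 were above 0, where 50.8% of all genes were. The 2 groups did not overlap, with NP higher, for 1 of the 95 genes, a smaller share than the 1.8% of all genes tested. That gene, Ighv1-52, had 0.998, 0.913, 1.37 and 0.434 CPM in NP lungs, against 0.317, 0.0903, 0.247 and 0.0608 CPM in vehicle lungs. At day 14 it had 0.479, 0.151, 0.745 and 0.181 CPM, overlapping both groups. Vehicle mice 2 and 4 were at or under 3 counts, worth 0.0903 and 0.0911 CPM there. The intervals were wide: the NP minus vehicle difference was 0.84 for Ighm (95% confidence interval −0.0021 to 1.69), 0.78 for Igkc (−0.16 to 1.72), 0.38 for Jchain (−0.84 to 1.60) and −0.17 for Igha (−1.35 to 1.01) on the log2 scale, each with adjusted p = 0.999 in edgeR. Without NP mouse 3 these differences were 0.25 for Ighm, 0.15 for Igkc, −0.22 for Jchain and −0.32 for Igha.

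In the lung of NP mouse 3, antibody transcripts were high while most mature B cell genes were the lowest of the NP group. Cd79a, a signalling subunit of the B cell receptor, had 37.6, 54.3, 22.6 and 39.1 CPM in NP lungs, 42.6, 30.1, 29.6 and 25.6 CPM in vehicle lungs and 17.6, 40.3, 18 and 26 CPM at day 14. The 14 mature B cell genes together summed to 229 to 496 CPM in NP lungs, 260 to 413 CPM in vehicle lungs and 200 to 365 CPM at day 14, and none of them was at 0. The sum of 229 CPM in NP mouse 3 was above those of day 14 mice 1 and 3, 200 and 210 CPM. Of these 14 genes, 13 were lowest of the NP group in mouse 3, among them Ms4a1, the gene of CD20, with 18.6 CPM. In contrast 66 of the 100 immunoglobulin genes were highest of the NP group in mouse 3, and 8 were lowest there. Of 10 T cell genes, which summed to 58.0 to 98.1 CPM in NP lungs, 66.9 to 77.5 CPM in vehicle lungs and 65.5 to 93.6 CPM at day 14 with none at 0, 9 were also lowest of the NP group in mouse 3. The share of all genes that were lowest or highest of the NP group in mouse 3 is not given here. The part of these B and T cell levels in the results above was not tested.

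**Figure D5:**
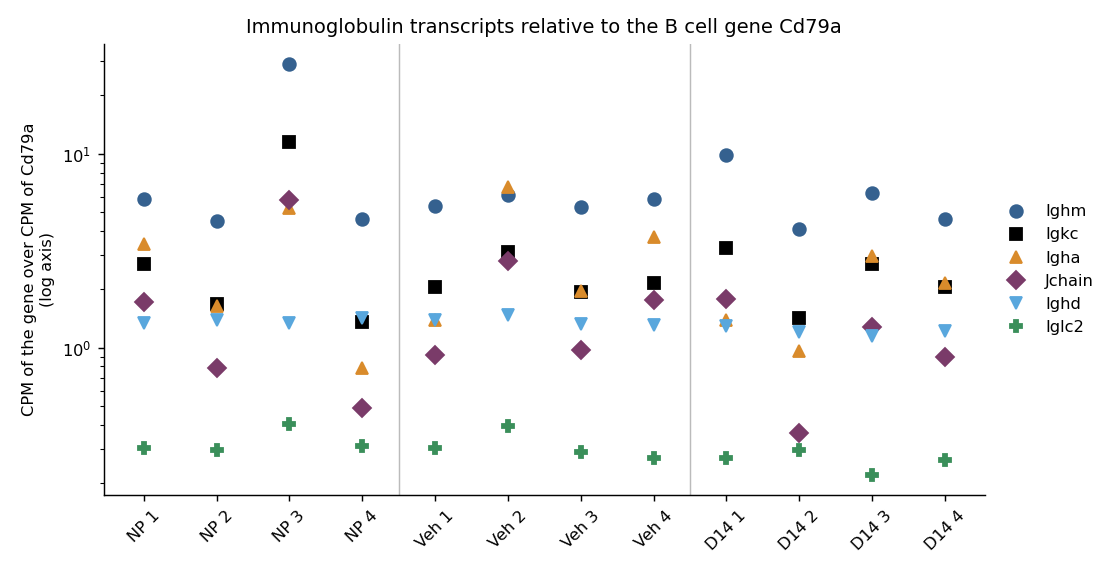
CPM of 6 immunoglobulin genes divided by the CPM of Cd79a on a log axis, in each of the 12 lungs, NP left, vehicle in the middle and day 14 right. Ighd stays between 1.15 and 1.47 in all lungs, while Ighm lies between 4.07 and 9.81 in 11 lungs and at 28.9 in NP mouse 3.

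Set against Cd79a within each lung, Ighd varied little, as did the mature B cell genes Ms4a1 (1.27-fold range of the ratio) and Cd79b (1.31-fold). The ratio of Ighd to Cd79a was 1.33 to 1.42 in NP lungs, 1.31 to 1.47 in vehicle lungs and 1.15 to 1.29 at day 14, a 1.28-fold range over 12 lungs in which Ighd itself varied 3.65-fold. Every day 21 ratio of Ighd lay above every day 14 ratio. Iglc2 also kept close, with a 1.84-fold range of the ratio. Ighm ranged 7.09-fold relative to Cd79a, Igkc 8.49-fold, Igha 8.53-fold, Jchain 15.9-fold and Ighg3 84.5-fold. Mzb1, a chaperone that helps fold antibody in plasma cells and marginal zone B cells, ranged 4.49-fold. Of 26 immunoglobulin genes at the count minimum in all 12 lungs, 15 had their highest ratio in NP mouse 3, and the median range of the ratio was 8.51-fold. These ratios are a description chosen after the values were seen, and were not tested.

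Of 18 genes of plasma cell identity and secretion 17 were tested. In edgeR 1 rose and 2 fell in NP lungs against day 14, beside 6.16% of all genes tested called higher and 8.56% lower. In vehicle lungs 1 rose, beside 3.79% of all genes called higher and 6.51% lower. DESeq2 called 4 higher and 2 lower in NP lungs, and 1 higher and 1 lower in vehicle lungs. Of all 17909 genes DESeq2 called 1600 higher and 1785 lower in NP lungs, and 1146 higher and 1526 lower in vehicle lungs. These numbers for all genes also stand beside the DESeq2 counts of the lists that follow. The 18 genes summed to 1745 to 1882 CPM in NP lungs, 1707 to 1877 CPM in vehicle lungs and 1876 to 2056 CPM at day 14. Over the 12 lungs Hsp90b1 alone had 623 to 813 CPM and Sdc1 265 to 368 CPM, where Mzb1 had 2.17 to 6.83 CPM. The sum is therefore no measure of plasma cells. Irf4, a transcription factor of plasma cells that other immune cells use too, had 14.0, 14.5, 12.1 and 11.9 CPM in NP lungs, 13.1, 12.3, 12.1 and 12.7 CPM in vehicle lungs and 8.54, 9.49, 9.38 and 11.1 CPM at day 14, with all 8 day 21 lungs higher. It rose by 0.45 in NP lungs (adjusted p = 0.00703) and by 0.39 in vehicle lungs (adjusted p = 0.0197) against day 14 on the log2 scale in edgeR. The vehicle call was lost without vehicle mouse 1 or day 14 mouse 1 or 3 (adjusted p 0.0582 to 0.0616).

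Sdc1, the CD138 antigen of plasma cells that epithelium also makes, fell by 0.32 on the log2 scale in NP lungs against day 14 (adjusted p = 0.00811 in edgeR). Txndc5, a folding enzyme of the secretory pathway, fell by 0.17 (adjusted p = 0.0437 in edgeR), a call lost without NP mouse 1, 3 or 4, vehicle mouse 1, 2 or 3, or day 14 mouse 1 or 3 (adjusted p 0.0583 to 0.121). Mzb1 had 4.95, 3.65, 6.83 and 3.22 CPM in NP lungs, 5.35, 5.30, 2.77 and 2.89 CPM in vehicle lungs and 2.80, 3.47, 2.49 and 2.17 CPM at day 14, and did not pass (adjusted p = 0.0801 and 0.204 for NP and vehicle against day 14 in edgeR), although DESeq2 called it in NP lungs (adjusted p = 0.0334). Tnfrsf17, the receptor BCMA of plasma cells, was barely detected, with 0.166 to 0.241 CPM in NP lungs, 0.0304 to 0.361 CPM in vehicle lungs and 0.0479 to 0.188 CPM at day 14, where 3 counts are worth 0.0718 to 0.125 CPM. Xbp1, a driver of secretory capacity, and Prdm1, the master regulator BLIMP-1, passed in no comparison (adjusted p of 0.0987 or more in edgeR), while DESeq2 called Prdm1 in NP lungs against day 14 (adjusted p = 0.0407). The median log2 fold change of the 17 genes was −0.02 for NP and −0.10 for vehicle against day 14.

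Of the 14 mature B cell genes, 1 rose in NP lungs against day 14, beside 6.16% of all genes tested. In vehicle lungs 0 rose, beside 3.79% of all genes. The median log2 fold changes of the 14 genes were 0.57 and 0.37. The gene that rose was Ralgps2, a guanine nucleotide exchange factor, by 0.54 (adjusted p = 0.0172 in edgeR). This call was lost without NP mouse 2 or day 14 mouse 1 or 3 (adjusted p 0.051 to 0.0556). Ms4a1 had log2 differences of 0.76 and 0.44 for NP and vehicle against day 14 and did not pass (adjusted p of 0.164 and 0.444 in edgeR). DESeq2 called 2 of the 14 genes higher in NP lungs and 1 in vehicle lungs. In edgeR 1 had an unadjusted p under 0.05 in vehicle lungs, beside 27.3% of all genes tested in either direction.

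Of 7 tested genes of germinal centres and class switching, 2 fell in each day 21 group against day 14 in edgeR. Of all genes tested 8.56% fell in NP lungs and 6.51% in vehicle lungs. DESeq2 called 2 of the list lower in each group. Ung, the uracil glycosylase that acts in class switching and in general DNA repair, fell by 0.97 in NP lungs and by 1.04 in vehicle lungs against day 14 on the log2 scale (adjusted p = 0.00356 and 0.00355 in edgeR). Ung had 1.89, 2.32, 1.68 and 1.74 CPM in NP lungs, 1.48, 2.47, 1.73 and 1.55 CPM in vehicle lungs and 3.69, 4.11, 3.80 and 3.37 CPM at day 14, with no overlap between days. Polh, a DNA polymerase that takes part in antibody gene mutation, fell by 0.30 and by 0.28 in NP and vehicle lungs (adjusted p = 0.0227 and 0.0376 in edgeR). The NP call of Polh was lost without NP mouse 1 or 3 or day 14 mouse 3 (adjusted p 0.0508 to 0.0787), and its vehicle call without NP mouse 1, vehicle mouse 1, 2 or 3, or day 14 mouse 1, 3 or 4 (adjusted p 0.0602 to 0.122).

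Among signals that guide and keep B cells, Cxcl13, the chemokine of B cell follicles, had 2.51, 2.45, 2.42 and 2.61 CPM in NP lungs, 2.47, 2.32, 3.05 and 2.37 CPM in vehicle lungs and 4.55, 3.69, 3.83 and 3.87 CPM at day 14. It fell by 0.68 and by 0.65 in NP and vehicle lungs against day 14 on the log2 scale (adjusted p = 0.00469 and 0.00831 in edgeR), with no overlap between days and with calls kept as each library was left out. Tgfb1, a cytokine that directs switching to IgA among many other roles, fell by 0.24 in vehicle lungs (adjusted p = 0.0221 in edgeR), a call lost without vehicle mouse 1, 2 or 3 or day 14 mouse 3 (adjusted p 0.0571 to 0.0763). Tnfsf13b, the survival factor BAFF, and Tnfsf13, its relative APRIL, passed in no comparison (adjusted p of 0.146 or more in edgeR). Of the 15 genes of this list tested, edgeR called 1 lower in NP lungs and 2 lower in vehicle lungs. Of all genes tested it called 8.56% and 6.51% lower. DESeq2 called 2 of the list higher and 1 lower in NP lungs and 3 lower in vehicle lungs.

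Of 10 genes of antibody transport and Fc receptors tested, 3 fell in NP lungs and 2 in vehicle lungs against day 14 in edgeR. Of all genes tested 8.56% and 6.51% fell. DESeq2 called 1 of the list higher and 3 lower in NP lungs and 4 lower in vehicle lungs. Fcgr2b, the inhibitory IgG receptor of B cells and macrophages, had 47.6, 46.8, 65.7 and 45.2 CPM in NP lungs, 42.5, 47.3, 49.0 and 48.0 CPM in vehicle lungs and 74.3, 63.4, 72.6 and 61.4 CPM at day 14. NP mouse 3 alone of the day 21 lungs reached the day 14 range. Fcgr2b fell by 0.54 in vehicle lungs (adjusted p = 0.00938) and by 0.40 in NP lungs (adjusted p = 0.0254) on the log2 scale in edgeR, the NP call being lost without NP mouse 1, 2 or 4 or day 14 mouse 1 or 3 (adjusted p 0.0673 to 0.0791). Fcgr1, the high-affinity IgG receptor of macrophages, fell by 0.52 in NP lungs (adjusted p = 0.0434) and by 0.69 in vehicle lungs (adjusted p = 0.0176) in edgeR. Its NP call was lost without NP mouse 2 or 4, vehicle mouse 2 or 3, or any day 14 mouse (adjusted p 0.0567 to 0.111), and its vehicle call without vehicle mouse 1 or 3 or day 14 mouse 3 (adjusted p 0.0523 to 0.0629).

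Fcgrt, the neonatal Fc receptor that recycles IgG, fell by 0.20 in NP lungs against day 14 on the log2 scale (adjusted p = 0.0374 in edgeR). That call was lost without any NP mouse, without vehicle mouse 1, 2 or 3, and without day 14 mouse 1, 2 or 3 (adjusted p 0.0532 to 0.106). Pigr, the receptor that carries IgA and IgM across epithelium, had 35.6 to 42.6 CPM in NP lungs, 38.5 to 44.4 CPM in vehicle lungs and 38.2 to 48.9 CPM at day 14, with log2 differences from day 14 of −0.08 for NP (95% confidence interval −0.26 to 0.10) and −0.04 for vehicle (−0.21 to 0.14) and no call in edgeR. As a check of the tissue, the 8 alveolar epithelial genes summed to 21593 to 22179 CPM in NP lungs, 21687 to 25173 CPM in vehicle lungs and 19025 to 21997 CPM at day 14, with none at 0. In edgeR 1 of them was called, Sftpa1, a surfactant protein, beside 6.16% and 3.79% of all genes called higher in NP and vehicle lungs. Sftpa1 was 0.33 higher on the log2 scale in NP lungs (adjusted p = 0.0317) and in vehicle lungs (adjusted p = 0.038) in edgeR. DESeq2 called 2 of the 8 higher and 1 lower in NP lungs and 3 higher in vehicle lungs. The NP call of Sftpa1 in edgeR was lost without NP mouse 1, 2 or 3 or day 14 mouse 3 (adjusted p 0.0502 to 0.0956), and the vehicle call without NP mouse 2, vehicle mouse 1, 3 or 4, or day 14 mouse 1, 2 or 3 (adjusted p 0.052 to 0.115).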

How the data were processed

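PolyA RNA of 12 whole lungs, 4 mice per group, was sequenced with paired 151-base reads. Per the submitters' processing notes, the build was GRCm38 and the tools were RSEM 1.3.3, STAR 2.7.8a, MultiQC 1.20, cutadapt 4.8 and FastQC 0.11.8. Which annotation was counted, and with what strand setting, is not given in the sources used here. Expected counts per gene were deposited as whole numbers, and TPM and FPKM were deposited beside them, per the file headers. FPKM was not analysed. Each of the 12 columns carries a library name that the labels tie to 1 mouse.

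The members of the set, the gene lists, the tests and the alternatives were chosen with earlier results of these data known. Genes were named by a fixed rule: every constant region and Jchain, the 8 V segments of highest mean CPM, the leading V segment of each locus in each library, up to 10 called V segments and up to 4 called genes of each list per comparison, and a set of B cell and plasma cell genes given whatever their p. Some genes that the rule names are not reported here. Ighv1-52 and Ighe were named after their values were seen.

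Expected counts were fitted with edgeR 4.0.16 in R 4.3.3: filterByExpr (minimum count 10, minimum total 15), TMM scaling, robust quasi-likelihood with 1 group term over 12 libraries, and two-sided contrasts with Benjamini-Hochberg adjustment over 17909 genes. The fit assumes that mice of the 3 groups vary alike, and p-values set each group difference against the spread between mice. For Igkc the spread was unequal, with standard deviations of 92.0, 20.1 and 4.15 CPM in NP, vehicle and day 14 lungs. The means were 127, 73.7 and 54.2 CPM. Alternatives were DESeq2 1.42.0, limma 3.58.1 on log2(TPM + 0.1) or log2(TPM + 1), other scalings and filters, and each library left out. Libraries whose omission ended a call are named beside it. Scripts were tested on simulated data. Read-window and sequence comparisons used GENCODE M21 transcripts on GRCm38.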

Additional observations from a re-analysis of the deposited data

Results flagged for a closer look

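In each group of 4 lungs the highest or lowest value was marked where its gap to the next lung, as a part of the group's range, passed Dixon's 95% critical value for 4 samples. Of 195 groups of 4 values examined, 18 were marked. Chance alone marks about 1 group in 20 where values are normal and groups independent. Values here were not put on a log scale and the groups share lungs, so the number marked shows no excess over chance. NP mouse 3 held 7 of the 18, in Ighm (652 CPM, next 244), Ighg2c (50.4 CPM, next 5.50), Ighg3 (35.7 CPM, next 2.90), Igkv4-55 (17.9 CPM, next 1.07), Ighv1-22 (2.58 CPM, next 0.830), Fcgr2b (65.7 CPM, next 47.6) and the effective number of Ighv segments (17.0, next 23.2). In vehicle mouse 1, Igkv15-103 was high (6.62 CPM, next 1.51). In vehicle mouse 2, Igkv4-59 was high (3.91 CPM, next 0.880) and the share of the leading Igkv segment low (6.30%, next 10.9%). In vehicle mouse 4, Igkv8-27 (2.22 CPM, next 0.577), Igkv10-96 (4.71 CPM, next 2.31) and Tgfb1 (82.4 CPM, next 78.9) were high. In NP mouse 2, Pou2af1 was high (20.6 CPM, next 16.1). At day 14, Igkv4-55 was high in mouse 1 (3.04 CPM, next 0.521), Ighv7-3 in mouse 2 (0.753 CPM, next 0.217), and Igkv5-43 (5.43 CPM, next 1.36) with the share of the leading Igkv segment (16%, next 9.32%) in mouse 4.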

How the results depend on the processing

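As each library was left out, the immunoglobulin genes called numbered 4 to 14 for NP against day 14 (12 with all libraries), 0 to 14 for vehicle against day 14 (8) and 0 for NP against vehicle, and the genes called overall numbered 1363 to 2936 (2636), 719 to 2162 (1845) and 0. The lowest counts of all genes came without day 14 mouse 3. DESeq2 called 24 of the immunoglobulin genes and 3385 of all 17909 genes in NP against day 14, 12 and 2672 in vehicle against day 14, and 0 and 18 in NP against vehicle. A fit of only the 2 groups called 7 immunoglobulin genes and 1672 genes overall in NP against day 14. Limma on log2(TPM + 0.1) called 1460, 912 and 1 genes in NP against day 14, vehicle against day 14 and NP against vehicle, and on log2(TPM + 1) 1452 and 945 in the first pair of comparisons. Leaving out NP mouse 3 and vehicle mouse 2 together, chosen after seeing the data, left 3 immunoglobulin calls in vehicle against day 14. The cause of these shifts was not tested. With a replicate block the immunoglobulin calls numbered 16, 10 and 0 and all calls 2419 and 1673 against day 14. Same-numbered mice deviated together weakly (correlations −0.0744 to 0.148), and differently numbered mice ranged from −0.155 to 0.151. Not every mouse correlated best with its own number. The numbers were therefore used only to name mice, but whether they mark a pairing or a batch was not tested.

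Of 2257 values of 103 named genes and comparisons under the alternatives, 1979 stayed on their side of the threshold with their sign, 208 lost a call, 33 gained one and 37 changed sign, none of them a called result. For the genes that changed sign, the ranges as libraries were left out (1 at a time, and NP mouse 3 with vehicle mouse 2) were as follows. In NP against day 14 they were −0.31 to 0.67 for Ighg1, −0.47 to 3.06 for Ighg3, −0.11 to 0.046 for Xbp1 and −0.12 to 0.0011 for Pigr. In vehicle against day 14 they were −0.30 to 1.09 for Ighg1, −1.25 to 0.40 for Ighg3 and −0.081 to 0.046 for Pigr. In NP against vehicle they were −0.22 to 0.77 for Jchain, −1.15 to 2.04 for Ighg2c, −0.19 to 1.16 for Ighg2b, −0.93 to 0.51 for Ighg1, −0.39 to 0.38 for Igha, −0.37 to 0.31 for Iglc3 and −0.36 to 0.24 for Iglc1. They were −0.039 to 0.35 for Mzb1, −0.0039 to 0.24 for Prdm1, −0.0080 to 0.16 for Xbp1, −0.0087 to 0.12 for Tnfsf13b and −0.032 to 0.074 for Tnfsf13. On TPM, Iglc3 was 0.0093 and 0.0075. All these are log2 fold changes.

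Shares of CPM in place of TPM put the median IgD share of vehicle lungs at 13.4%. A minimum count in all 12 libraries left 1 Ighv segment, hence a leading share of 100% and an effective number of 1 in each group. It put the median leading Igkv share at 22.7%, 21.6% and 20.6% and the median effective Igkv number at 8.27, 8.06 and 9.11 for NP, vehicle and day 14. With every segment that had a count, the leading Ighv share was 8.56% in NP and 9.83% in vehicle lungs, and the effective Ighv number 36.0, 29.4 and 27.0 for NP, vehicle and day 14. Depth limits what can be said of genes near 3 counts, which are worth 0.0718 to 0.125 CPM.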
